A study of Mus musculus with 74 samples.

Results

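Nf1 encodes neurofibromin, a RasGAP, which is a protein that makes RAS hydrolyse its bound GTP and so switches it off. Cells that lose a RasGAP keep more RAS in its active, GTP-bound form, which signals through kinase cascades to growth and division. Loss of NF1 is found in human lung adenocarcinoma, and Rasa1 encodes another RasGAP.

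The tumours described here carried a guide RNA against Nf1 in a lentiviral pool that delivered Cre, a tumour barcode and 2 guides per virus. They were chosen by name, as every tumour with an Nf1 guide in place 1 or place 2 of its construct. Left out were constructs that carried 1 guide in both of its places, spike-ins and constructs with the guide called NE. This gave 57144 of 378754 tumours, or 15.1%, on 2 Nf1 guides called V1 and V2. Their controls were tumours with inert guides in both places (inert/inert), the inert guides being 3 called safe, 1 called NT and 1 called EGFP.

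All 74 mice were of the KT background, which includes an R26LSL-Tomato reporter that Cre from the virus switches on. In 45 H11-Cas9 mice Cas9 was also carried at the H11 locus, in 20 H11-LSL-Cas9 mice Cas9 there sat behind a stop cassette that Cre has to remove, and 9 KT mice had no Cas9, so that no guide could cut. Lungs were harvested about 3 months after infection, and barcodes with their guides were sequenced from 32 µg of whole-lung DNA, 1 library per mouse. The table gives the guides of a tumour and its cell number, so neither the Nf1 edit nor Nf1 protein in a tumour was measured, and tumour cells were not separated from other lung cells. Ages and sexes of the mice were not given in the labels.

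A mouse held 1013 to 5364 tumours in H11-Cas9, 4 to 4941 in H11-LSL-Cas9 and 13191 to 41166 in KT. Reads per mouse ranged from 118601 to 6.26e+06, from 37 to 1.16e+06 and from 1.43e+06 to 1.12e+07 in the same order of groups. Each read stood for a median of 7.96 cells in H11-Cas9, 12.9 in H11-LSL-Cas9 and 4.82 in KT mice, so small tumours were coarsest in H11-LSL-Cas9. Inert/inert tumours themselves were smaller in both Cas9 groups, with a median geometric mean of 180 and 184 cells per mouse, than in KT mice with 270 cells. For that reason sizes were compared within a mouse, and numbers as ratios within a mouse. Mice were the replicates, and a difference was called at a Benjamini-Hochberg adjusted p under 0.05.

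Beside an inert guide, Nf1 guides went with larger tumours in H11-Cas9 mice. There were 3234 Nf1/inert tumours and 1107 inert/inert tumours in these mice. The geometric mean size per mouse was 150 cells at the lowest, 250 at the median and 882 at the highest for Nf1/inert tumours, against 108, 180 and 394 cells for inert/inert tumours. These ranges overlap between mice, but within a mouse the Nf1/inert tumours were the larger ones in 40 of 45 mice. The difference in mean log2 cells per tumour was 0.43 ± 0.06 (mean ± SE over 45 mice), or 1.35-fold, with -0.43 in the lowest mouse, 0.43 in the median mouse and 1.41 in the highest (adjusted p = 4.25e-05, sign-flip permutation test over mice, adjusted over 17 single genes). Of those genes 64.7% were called larger in this group, and 70.6% in either direction.

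In H11-LSL-Cas9 mice 1022 Nf1/inert tumours had geometric means of 114, 202 and 779 cells in the lowest, median and highest mouse, against 121, 184 and 423 cells for 400 inert/inert tumours. The first range covers 18 mice and the second 17. The mouse at 779 cells held only 4 inert/inert tumours, with a geometric mean of 638 cells. It therefore entered neither the inert/inert range nor the test. The log2 difference between Nf1/inert and inert/inert was 0.11 ± 0.10 (17 mice, 11 above 0, adjusted p = 0.844, sign-flip permutation test), and 5.88% of single genes were called larger. It was 0.48 with a minimum of 200 cells (14 mice, adjusted p = 0.0703, exact sign-flip permutation test) and 0.45 for the 90th percentile (17 mice, adjusted p = 0.297), and neither passed. In KT mice, where 3152 Nf1/inert tumours stood at 213, 323 and 472 cells against 204, 270 and 576 cells for 1466 inert/inert tumours, it was -0.03 ± 0.06 (9 mice, 3 above 0, adjusted p = 0.863, exact sign-flip permutation test). No single gene was called in KT, a background of 0%. With 9 mice this test cannot give a p below 0.00391.

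The H11-Cas9 difference exceeded that of KT mice by 0.46 ± 0.08 (adjusted p = 0.00085, studentised permutation of mouse labels, 23.5% of single genes called higher). For H11-LSL-Cas9 minus KT the value was 0.14 (adjusted p = 0.701, 5.88% called higher). The direct difference between H11-Cas9 and H11-LSL-Cas9 was 0.32 ± 0.12, which did not pass (p = 0.0091, adjusted p = 0.0516 by the same permutation, 11.8% of single genes called higher). With a minimum of 200 cells it changed sign, at -0.04 ± 0.19 (adjusted p = 0.93), the effect in H11-Cas9 being 0.45, against 0.48 in H11-LSL-Cas9 mice. A larger Nf1 effect in H11-Cas9 than in H11-LSL-Cas9 is therefore not shown.

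**Figure D1:**
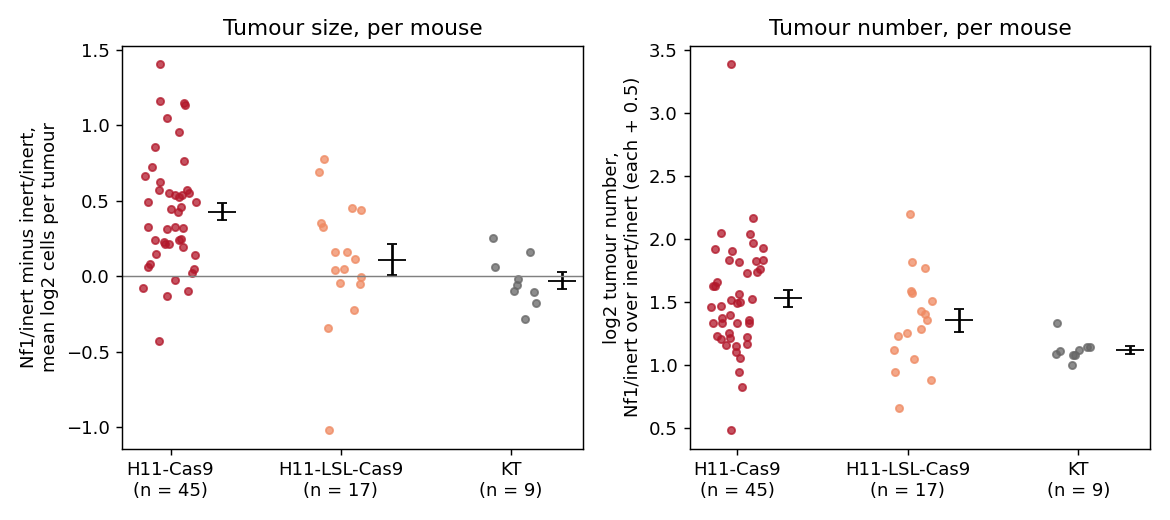
Each point is 1 mouse, in H11-Cas9 (left), H11-LSL-Cas9 (middle) and KT (right), with the mean and its SE in black. The left panel gives the size of Nf1/inert minus inert/inert tumours in log2 cells, above 0 in 40 of 45 H11-Cas9 mice, and the right panel the log2 number of Nf1/inert over inert/inert tumours, which lies close together in KT mice, from 0.99 to 1.33.

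Large tumours were more frequent with an Nf1 guide. Of Nf1/inert tumours in H11-Cas9 mice, 11.5% had at least 1000 cells, against 5.60% of inert/inert tumours. Averaged over mice the shares were 11.4% ± 6.67 and 5.42% ± 4.83 (SD, n = 45 each), a difference of 6.03 ± 0.948 percentage points that was positive in 37 of 45 mice (adjusted p = 3.4e-05, sign-flip permutation test, 64.7% of genes called higher). At 10000 cells and above there were 68 of 3234 Nf1/inert tumours, or 2.10% (exact 95% binomial interval 1.64% to 2.66%). No inert/inert tumour of the 1107 reached that size, for which the same exact interval goes up to 0.333%. These intervals and limits cover counting error only.

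In KT mice the shares of at least 1000 cells were 16.3% and 17.7% for Nf1/inert and inert/inert tumours, and 5 of 3152 Nf1/inert tumours had 10000 cells or more. H11-LSL-Cas9 mice had 23 such tumours among 1022 Nf1/inert tumours (2.25%) and none among 400 inert/inert tumours, which allows up to 0.75%. The shares over 1000 cells in H11-LSL-Cas9 averaged 8.67% and 4.76% (difference 3.91 ± 1.5 percentage points, 17 mice, adjusted p = 0.0896, sign-flip permutation test, 0% of genes called). The 90th percentile of log2 cells per mouse gave 0.96 in H11-Cas9 for the size difference, and a minimum of 500 cells gave 0.65 in the 10 mice that kept 5 tumours of each kind. Adaptive sampling keeps only the largest tumours of each genotype, as many as its number relative to inert/inert in KT mice sets. A genotype more numerous than in KT thus keeps a smaller share of its tumours, and a less numerous one a larger share. Values under adaptive sampling therefore combine size with number. For Nf1/inert the value was 1.12 in H11-Cas9 mice, and 0.69 in H11-LSL-Cas9 mice, where it then passed (15 mice, adjusted p = 0.0206, exact sign-flip permutation test).

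The H11-Cas9 mice fell into 25 whose spike-in barcodes summed to about 100000 cells and 20 with about 300000 cells, and the Nf1 size difference was 0.51 and 0.32 within them, each past the test. In KT the 5 and 4 mice of these totals gave 0.03 and -0.11. All H11-LSL-Cas9 mice had a total near 300000, so for them that total and the genotype cannot be told apart except against the H11-Cas9 and KT mice that share it. Within that total, H11-Cas9 minus KT was 0.43 (adjusted p = 0.0426, studentised permutation) and H11-Cas9 minus H11-LSL-Cas9 0.21 (adjusted p = 0.324).

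Beside inert, both Nf1 guides and all inert partners gave the same direction in H11-Cas9 mice. Guide V1 stood 0.46 ± 0.07 above inert/inert on 1523 tumours and guide V2 0.41 ± 0.06 on 1711 tumours, and they differed by 0.05 ± 0.06 (45 mice, adjusted p = 0.627, sign-flip permutation test, with 10% of the 10 genes that have 2 guides called). By inert partner the difference was 0.52 with EGFP, 0.43 with NT, and 0.44, 0.39 and 0.31 with the 3 safe guides. An Nf1 guide in place 1 gave 0.43 and in place 2 0.42.

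The place of the guide went with size in H11-LSL-Cas9 mice. With the Nf1 guide in place 1 (541 tumours) the difference from inert/inert was 0.28 ± 0.12, against -0.08 ± 0.09 with it in place 2 (481 tumours). Within a mouse place 1 minus place 2 was 0.33 ± 0.09 and positive in 15 of 18 mice (adjusted p = 0.0411, sign-flip permutation test, 6.25% of genes called). The call was lost at a minimum of 200 cells (0.36, adjusted p = 0.518) and for the 90th percentile (1.06, adjusted p = 0.0955). Beside the other genes the same place difference was 0.08 ± 0.04 for Nf1 in this group (12 of 18 mice above 0, permutation p = 0.0799, a comparison added after the values were seen). The median place difference of the 15 other genes beside inert was 0.07, with 10 of them above 0.

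Constructs with V1 and V2 together, which target Nf1 with both guides, did not pass the test for a size different from that of 1 Nf1 guide beside an inert one. In H11-Cas9 mice their 616 tumours stood 0.35 ± 0.08 above inert/inert (34 of 45 mice, adjusted p = 1.33e-04, sign-flip permutation test, 50% of 8 such genes called). Against Nf1/inert the difference was -0.07 ± 0.07 (20 of 45 mice above 0, adjusted p = 0.756, 0% of such genes called). For H11-LSL-Cas9 the value against inert/inert was -0.03 ± 0.09 (15 mice) and for KT 0.07 ± 0.08 (9 mice), neither called.

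Set against every other gene beside inert within the same H11-Cas9 mice, Nf1/inert tumours were the larger in the mean of all 15 genes described. The test, added after the values were seen, passed for 11 of 15 (68.8% of 16 tested were called). The differences that passed ran from 0.14 ± 0.04 over p53, the stress-responsive transcription factor, and 0.17 ± 0.05 over Rasa1 to 0.69 ± 0.13 over Pcna, the sliding clamp of DNA replication. Those over the kinase Lkb1 (0.16, adjusted p = 0.0541), Ccnl1 (0.15, adjusted p = 0.0795), Kat7 (0.22, adjusted p = 0.0578) and Meaf6 (0.11, adjusted p = 0.599) did not pass the sign-flip permutation test. In H11-LSL-Cas9 mice the test passed over Rasa1 (0.20 ± 0.05, 15 of 18 mice, adjusted p = 0.008) and Pcna (0.43 ± 0.08, 15 of 16 mice, adjusted p = 0.00439), or 12.5% of the 16 tested. In KT mice it passed over no gene (0%, and 4 of the 15 at an unadjusted p under 0.05, all with Nf1 lower). Every one of these tests set Nf1 against another gene, so the shares called give no background from other genes.

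Combined with a second gene, Nf1 tumours in H11-Cas9 mice were larger than inert/inert tumours for 8 of 15 partners and smaller for none. Over all 104 gene pairs tested 36.5% were called larger and 0.962% smaller. The median Nf1 pair was at 0.33, against 0.19 over all pairs. H11-LSL-Cas9 mice gave no call among 14 Nf1 pairs tested, with 4 at an unadjusted p under 0.05, a median of 0.10 and a background of 2.88% larger and 3.85% called in either direction. KT mice gave none among 15, with 0 at an unadjusted p under 0.05 and a background of 0%.

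With p53, Nf1 tumours had geometric means of 156, 269 and 877 cells in the lowest, median and highest H11-Cas9 mouse, against 134, 225 and 607 cells for p53 beside inert. The pair exceeded inert/inert by 0.54 in 44 of 45 mice. Together with Rasa1 these values were 165, 258 and 612 cells, against 118, 205 and 443 cells for Rasa1 beside inert, and the pair stood 0.46 above inert/inert in 42 of 45 mice. Among the remaining cell-cycle and Wnt genes, the pair with Rb1, which holds back entry into S phase, was at 0.39 (37 of 45 mice above 0). With Apc, a part of the complex that destroys beta-catenin, the pair was at 0.42 (33 of 45 mice), and with Rnf43, a ubiquitin ligase that removes Wnt receptors, at 0.33 (38 of 45 mice). All 5 had an adjusted p of 9.91e-05 or less in the sign-flip permutation test.

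Nf1 with Lkb1, a kinase that activates AMPK, had geometric means of 109, 216 and 1901 cells per mouse, against 105, 208 and 1289 cells for Lkb1 beside inert. This pair was at 0.47 ± 0.12 in log2 size, with 31 of 45 mice above 0 and a range of -0.95 to 2.42 (adjusted p = 0.00127). Under adaptive sampling, which combines size with number, it was -0.17 (25 mice, adjusted p = 0.527), the opposite direction. Within the spike-in total near 300000 it was 0.17 (adjusted p = 0.411). The pair with Keap1, the adaptor that marks NRF2 for degradation, was at 0.11 (25 of 45 mice above 0, adjusted p = 0.257, sign-flip permutation test), and -0.44 under adaptive sampling (34 mice, adjusted p = 0.00122).

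Among chromatin genes, Nf1 with Setd2, a histone methyltransferase of transcribed genes, was at 0.38 (37 of 45 mice, adjusted p = 6.5e-05). Pairs with the methyltransferase Kmt2a (0.19, 33 mice), its paralog Kmt2b (-0.34, 9 mice), the acetyltransferase Kat7 (0.10, 17 mice) and its complex subunit Meaf6 (-0.03, 5 mice) did not pass. Of the L-type cyclins, which act with kinases of transcription and splicing, Ccnl2 passed (0.34, 32 of 43 mice, adjusted p = 0.00127) and Ccnl1 did not (0.18, 34 mice, adjusted p = 0.229). With Pcna only 4 H11-Cas9 mice held 5 such tumours, and all 4 were below inert/inert (-0.52, adjusted p = 0.206, exact sign-flip test, which cannot go below 0.125 with 4 mice).

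**Figure D2:**
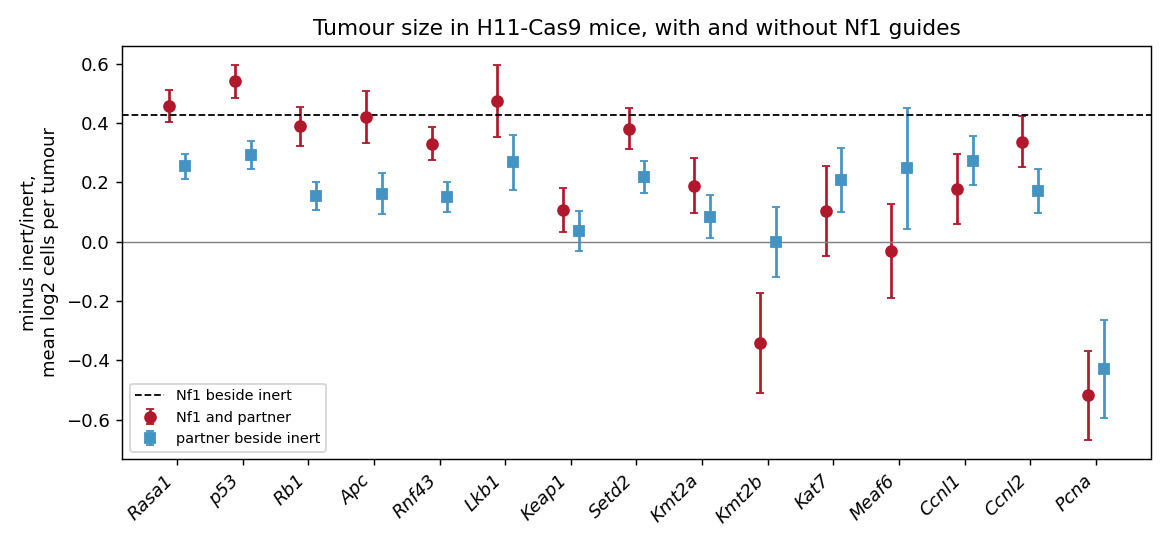
Mean log2 size minus inert/inert in H11-Cas9 mice for Nf1 with each partner (red circles) and for the partner beside inert (blue squares), with SE over mice and the Nf1/inert mean of 0.43 as a dashed line. Pairs with p53, Rasa1 and Lkb1 lie at or above the dashed line, and those with Kmt2b, Meaf6 and Pcna, on 9, 5 and 4 mice, lie below 0.

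Set against the KT mice, which carry the same viruses uncut, 5 of these pairs were called larger in H11-Cas9 (Apc, Rasa1, Rb1, Rnf43 and p53, differences of 0.31 to 0.50) and 1 smaller (Pcna, -0.62 ± 0.16), by studentised permutation. Of all pairs 20.2% were called larger and 4.81% smaller in this comparison. Not called by it were the pairs with Lkb1 (0.44, adjusted p = 0.0521), Setd2 (0.27, adjusted p = 0.0596) and Ccnl2 (0.36, adjusted p = 0.0707).

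Among Nf1 pairs in H11-Cas9 mice the shares of tumours with at least 10000 cells were highest with Lkb1, Apc and Setd2. Of 794 tumours with Nf1 and Lkb1, 46 had at least 10000 cells, or 5.79% (exact 95% binomial interval 4.27% to 7.65%), against 46 of 1021 for Lkb1 beside inert (4.51%, 3.32% to 5.96%). With Apc there were 36 of 943 (3.82%, 2.69% to 5.25%), against 17 of 1041 for Apc beside inert (1.63%, 0.954% to 2.60%), and the largest held 3.68e+07 cells. With Setd2 there were 50 of 1729 (2.89%, 2.15% to 3.79%), against 33 of 2141 for Setd2 beside inert (1.54%, 1.06% to 2.16%). By count the pair with p53 had the most, 60 of 2816 (2.13%, 1.63% to 2.73%), against 29 of 3487 for p53 beside inert (0.832%, 0.558% to 1.19%). These shares pool mice and were not tested.

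How much an Nf1 guide added to a tumour that already had a partner guide was measured as the pair minus the partner beside inert, within a mouse. In H11-Cas9 mice this step was called larger for 6 of 14 partners and smaller for none, against 9.36% and 3.45% of 203 steps of all genes. Its median was 0.16, against -0.01 over all steps. The 6 were Apc (0.26 ± 0.09), p53 (0.25 ± 0.05), Rb1 (0.23 ± 0.05), Rasa1 (0.20 ± 0.05), Rnf43 (0.18 ± 0.05) and Setd2 (0.16 ± 0.05), each positive in 29 to 35 of 45 mice. The Apc step was 0.09 (adjusted p = 0.708) in the 25 mice whose spike-ins summed to about 100000 cells. The size of the step was below the 0.43 of Nf1/inert for all 14. By Nf1 guide, 11 of the 12 partners measured with both had steps above 0 with each. The p53 step was 0.37 ± 0.06 with V1 and 0.12 ± 0.06 with V2, and the Rnf43 step 0.27 and 0.10. Kmt2a gave 0.37 with V1 and -0.09 with V2. V1 gave the larger step for all of these partners except Ccnl2 and Kat7. The guide difference in steps was not tested.

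Partners without a call covered a wide range. Adding Nf1 to Lkb1 gave 0.21 (29 of 45 mice, adjusted p = 0.214) and adding it to Keap1 0.07 (26 of 45 mice, adjusted p = 0.599). To Ccnl2 it added 0.15 (43 mice, adjusted p = 0.344), while the values for Ccnl1 (-0.11, 34 mice), Kat7 (-0.16, 15 mice) and Kmt2b (-0.09, 6 mice) were below 0 and were not called either. Meaf6 was left with 2 mice and no test.

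Against KT mice the Nf1 step remained called for Rb1 (0.33 ± 0.08, adjusted p = 0.032) and Rasa1 (0.29 ± 0.08, adjusted p = 0.0457, studentised permutation, 1.97% of steps called larger). The steps of Apc, Rnf43, Setd2 and p53 had adjusted p from 0.0684 to 0.335 there. In H11-LSL-Cas9 mice 0 of 14 Nf1 steps were called and 4 had an unadjusted p under 0.05, with a median of 0.14 against 0.02 over all 206 steps, of which 1.94% were called larger and 2.91% in either direction. Those 4 were Rasa1 (0.23), Setd2 (0.27), Rnf43 (0.16) and p53 (0.14), each positive in 13 or 14 of 18 mice. KT gave 0 of 15, with 0 at an unadjusted p under 0.05.

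The reverse step, a partner guide added to Nf1, was called larger for none of 15 partners in H11-Cas9 mice and smaller for 1, where 9.36% of all steps were called larger and 3.45% smaller. That was Keap1, with a change of -0.32 ± 0.06 and 7 of 45 mice above 0 (adjusted p = 8.7e-04, sign-flip permutation test). The call was lost with a minimum of 200 cells (-0.18, adjusted p = 0.193) or 500 cells (-0.13, adjusted p = 0.687) and within the spike-in total near 300000 (-0.32, adjusted p = 0.0599). Against KT it stood at -0.40 ± 0.07 (adjusted p = 0.00203). Nf1 tumours with Keap1 had geometric means of 100, 191 and 961 cells per mouse, against the 150, 250 and 882 cells of Nf1/inert given above. Kmt2b added to Nf1 gave -0.73 ± 0.15 (1 of 9 mice above 0, adjusted p = 0.0529, exact sign-flip test), which passed with an adjusted p of 0.0469 when only steps with at least 6 mice entered. Against KT the steps of Kmt2b (-0.73, adjusted p = 0.032) and Pcna (-0.75, adjusted p = 0.032) were called lower too, where 3.94% of all steps were.

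Adding p53 (0.11, adjusted p = 0.208), Lkb1 (0.05, adjusted p = 0.89) or Rasa1 (0.03, adjusted p = 0.741) to Nf1 was not called in the sign-flip permutation test. By Nf1 guide, adding p53 gave 0.21 ± 0.08 with V1 and -0.002 ± 0.07 with V2, a difference that was not tested. The median of the 15 reverse steps was -0.10. In H11-LSL-Cas9 mice 0 of 14 were called (0.971% of steps were called smaller), and 1 had an unadjusted p under 0.05, Pcna at -0.42 ± 0.13 (2 of 13 mice above 0). The Keap1 step was -0.02 there (11 of 18 mice above 0). H11-Cas9 minus H11-LSL-Cas9 was -0.30 ± 0.11 for it, which did not pass (adjusted p = 0.203, studentised permutation), and of 14 steps in either order none was called between the 2 Cas9 groups (0 Nf1 steps and 1 reverse step had an unadjusted p under 0.05).

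**Figure D3:**
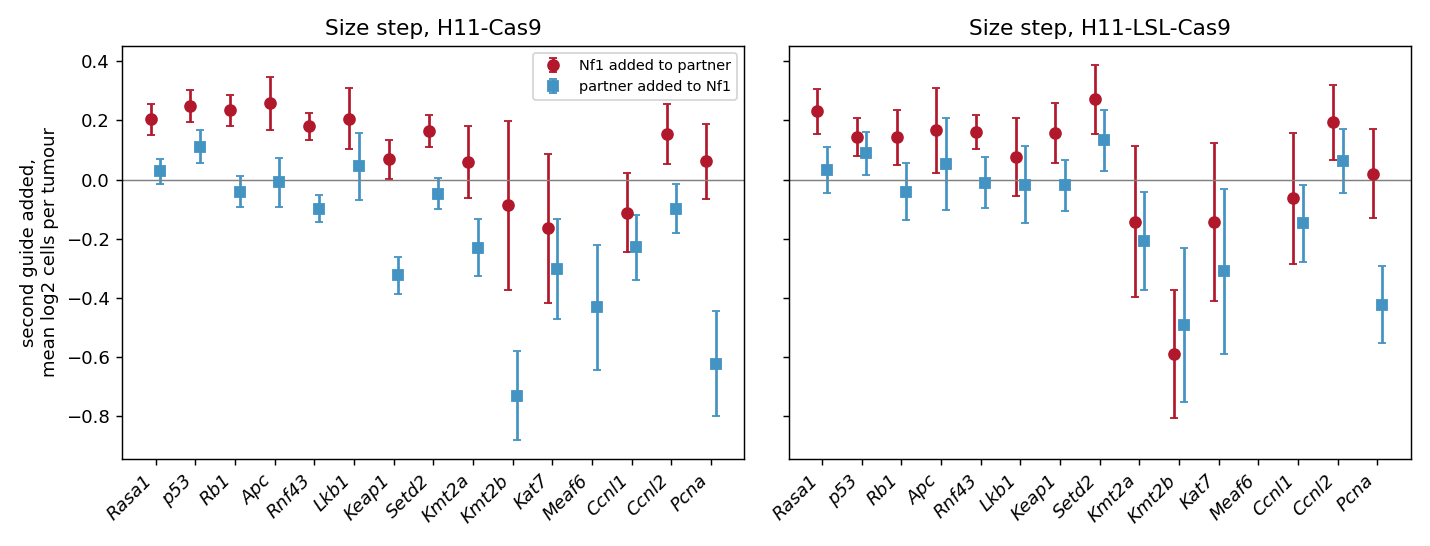
Size steps in log2 cells for Nf1 added to a partner (red circles) and the partner added to Nf1 (blue squares), mean and SE over mice, in H11-Cas9 (left) and H11-LSL-Cas9 (right), for genotypes with at least 3 mice. In H11-Cas9 the red points of Apc, p53, Rb1, Rasa1, Rnf43 and Setd2 lie between 0.16 and 0.26, and the blue point of Keap1 lies at -0.32.

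Pairs of Nf1, like most pairs of all genes, fell below the sum of their 2 single effects in H11-Cas9 mice. This departure, the pair minus both single effects within a mouse, equals the Nf1 step minus the Nf1/inert difference. It was negative for 13 of 14 partners tested and called for 6, with 0 called positive. The background was 24.2% of 99 pairs called negative, the median was -0.26 against -0.21 over all pairs, and 12 of 99 pairs were positive. All partners share the Nf1/inert and inert/inert tumours of the same mice, so their departures are not independent.

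The 6 were Ccnl1 (-0.52 ± 0.15), Keap1 (-0.36 ± 0.09), Setd2 (-0.26 ± 0.07), Rnf43 (-0.25 ± 0.07), Rasa1 (-0.22 ± 0.06) and Rb1 (-0.19 ± 0.07), with adjusted p from 0.00247 to 0.0383. Of the others, p53 was at -0.18 ± 0.08 (adjusted p = 0.097), Lkb1 at -0.22 ± 0.12 (adjusted p = 0.171) and Apc at -0.17 ± 0.11 (adjusted p = 0.245). By Nf1 guide, all 12 partners measured with both guides were negative with each. The p53 departure was -0.09 ± 0.09 with V1 and -0.29 ± 0.09 with V2. When 10 tumours of each kind were required of a mouse, Ccnl1 turned to 0.19 ± 0.18, on 5 mice.

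In H11-LSL-Cas9 mice the departure was called for 0 of 14 partners, none had an unadjusted p under 0.05, and 9 were positive, with a median of 0.01. Over all 102 pairs 0% were called, 53 were positive and the median was 0.00. KT mice gave 0 of 15 called, 0 at an unadjusted p under 0.05, 7 positive and a median of -0.01, against 0% of 133 pairs called, 39 positive and a median of -0.05. Set directly against KT, 0 of 14 H11-Cas9 departures passed the studentised permutation and 5 had an unadjusted p under 0.05 (lowest adjusted p = 0.146, 1.01% of pairs called lower). Against H11-LSL-Cas9 likewise 0 passed and 4 had an unadjusted p under 0.05 (lowest adjusted p = 0.2, background 0%). The H11-Cas9 departures thus passed against 0 and not against the other groups. Even against 0 their calls did not hold under every alternative. Within the spike-in total near 300000, 0 of 13 were called, and at a minimum of 500 cells 0 of 7, on fewer mice or tumours.

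**Figure D4:**
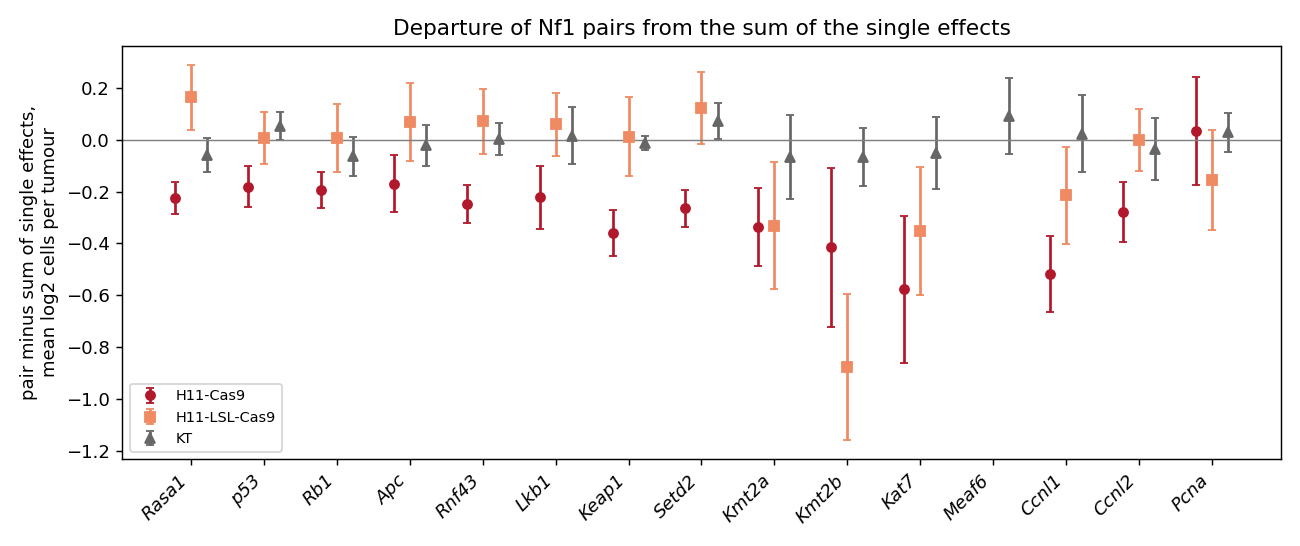
Departure of Nf1 pairs from the sum of the single effects in log2 cells, mean and SE over mice, for H11-Cas9 (red circles), H11-LSL-Cas9 (orange squares) and KT (grey triangles), for genotypes with at least 3 mice. Most H11-Cas9 points lie between -0.17 and -0.58, while KT points lie between -0.07 and 0.09.

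Relative to inert/inert tumours of the same mouse, Nf1/inert tumours were more numerous in H11-Cas9 mice than in KT mice, while their number per mouse was lower. A mouse held 25, 68 and 144 Nf1/inert tumours (lowest, median, highest) in H11-Cas9, against 217, 300 and 640 in KT. Beside them stood 5, 24 and 51 inert/inert tumours in H11-Cas9, against 86, 136 and 304 in KT. The smallest tumour in a mouse, of any genotype, held 50.1 to 105 cells in H11-Cas9 and 50.4 to 56.2 cells in KT. It held 50.4 to 369 cells in H11-LSL-Cas9. Numbers thus count only tumours above such a size, and are not separate from size. The log2 ratio of Nf1/inert to inert/inert tumours, with 0.5 added to each number, was 0.48, 1.49 and 3.39 in H11-Cas9 mice, against 0.99, 1.11 and 1.33 in KT mice. Above the highest KT mouse were 30 of 45 H11-Cas9 mice. The mean ratio differed by 0.41 ± 0.07, or 1.33-fold, between H11-Cas9 and KT (adjusted p = 0.0325, permutation of mouse labels, 5.88% of single genes called higher and 41.2% in either direction).

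This call depended on KT mice, since without KT replicate 2, 3, 5, 6, 7 or 8 the adjusted p was 0.0532 to 0.0568 with a difference of 0.39 to 0.41. With the studentised permutation it was 8.5e-05, where 76.5% of single genes were called in either direction. Within the spike-in total near 300000 the difference was 0.47 (adjusted p = 0.0154), and near 100000 it was 0.36 (adjusted p = 0.298). In H11-LSL-Cas9 mice the ratio was 0.65, 1.35 and 2.20, and it exceeded KT by 0.24 ± 0.10 (17 mice, adjusted p = 0.224, permutation test, 5.88% called higher). With a minimum of 200 cells the difference from KT was 0.53 in H11-Cas9 (39 mice, adjusted p = 0.00976, permutation test). In H11-LSL-Cas9 it was then 0.06 (14 mice, adjusted p = 0.714). Taken relative to all tumours of a mouse instead of inert/inert ones, the H11-Cas9 difference was 0.83 and the H11-LSL-Cas9 difference 0.42, and both passed (adjusted p = 2.83e-05 and 4.25e-05). All tumours include those of other genes, so this ratio also moves with their numbers. Of single genes 35.3% were called lower than KT and 5.88% higher relative to inert/inert in H11-Cas9, and 17.6% and 5.88% in H11-LSL-Cas9. By guide the H11-Cas9 difference was 0.53 for V1 (adjusted p = 0.0136) and 0.31 for V2 (adjusted p = 0.109), over 27 guides, and V1 with V2 together gave 0.58 (adjusted p = 0.00523, 30% of such genes called higher).

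In pairs, the number of Nf1 tumours in H11-Cas9 relative to KT was called higher for 4 of 15 partners and lower for 4, where 8.09% of 136 pairs were called higher and 47.1% lower, 55.1% in all. Higher were the pairs with p53 (0.58 ± 0.07), Rasa1 (0.58), Ccnl2 (0.56) and Rnf43 (0.32). The Rnf43 call was lost whichever of the 9 KT mice was left out (adjusted p = 0.0507 to 0.0853, permutation test), and the Ccnl2 call without KT replicate 3 or 9 (adjusted p up to 0.0558). Lower were those with Pcna (-4.30), Lkb1 (-0.97), Kmt2b (-0.88) and Keap1 (-0.68). For the pair with Pcna the ratio to inert/inert was -6.15, -3.56 and -1.30 in the lowest, median and highest H11-Cas9 mouse, against 0.39, 0.54 and 0.69 in KT mice, with no overlap. An H11-Cas9 mouse held 0, 2 and 8 tumours of this pair (lowest, median, highest), 0, 3 and 8 with Kmt2b and 0, 2 and 6 with Meaf6. In a mouse with 0 tumours the added 0.5 sets the value, so the magnitudes for these partners are rough. The pair with Rasa1 was above the highest KT mouse in 43 of 45 mice, and that with p53 in 37.

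Nf1 added to a partner went with more tumours for 6 of 15 partners and fewer for none, and the step was positive for 14. Over all 272 number steps 11% were called higher and 22.1% lower, and the median of the Nf1 steps was 0.36 against -0.07. The 6 were Ccnl2 (0.67 ± 0.11), Rnf43 (0.47 ± 0.06), Apc (0.44 ± 0.10), Rasa1 (0.38 ± 0.06), p53 (0.36 ± 0.05) and Setd2 (0.34 ± 0.07). The Apc call was lost without KT replicate 3, 7 or 9 (adjusted p up to 0.0595, permutation test). Rasa1, p53, Apc, Rnf43 and Setd2 were thus the partners with both Nf1 steps called, size against 0 and number against KT. Of their size steps only that of Rasa1 also passed against KT. Within either spike-in total alone the size steps of Rasa1, p53, Rnf43 and Setd2 were not called (adjusted p = 0.0553 to 0.508, sign-flip permutation test). For Lkb1 the number step was 0.21 (adjusted p = 0.371) and for Keap1 0.30 (adjusted p = 0.0916), and Pcna was the partner with a negative value (-0.14 ± 0.19, adjusted p = 0.844).

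The partner added to Nf1 went with fewer tumours for 6 of 15 partners and with more for none, where 22.1% of all steps were called lower and 11% higher. These were Pcna (-4.71), Lkb1 (-1.38), Kmt2b (-1.28), Keap1 (-1.08), Apc (-0.64) and Setd2 (-0.39). All 6 were also called lower in number beside inert, from -0.32 for Setd2 to -4.16 for Pcna. Number departures from the sum of the single effects, which the permutation test covered for all 15 partners, were called for 0, with 0 at an unadjusted p under 0.05 and a background of 6.62% called positive and 0.735% negative, 7.35% in all. They ranged from -0.55 ± 0.19 for Pcna to 0.26 ± 0.12 for Ccnl2.

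H11-LSL-Cas9 mice gave fewer number calls than H11-Cas9. No Nf1 pair was called higher (5.15% of all pairs) and 2 were called lower (19.1%), with Pcna (-1.93) and Lkb1 (-0.46). The step adding Nf1 was called higher for Keap1 (0.33 ± 0.07) and Rnf43 (0.31 ± 0.08), where 6.25% of all steps were. With 1 KT mouse left out at a time the Rnf43 call was kept without replicate 7 and lost without any of the other 8 (adjusted p up to 0.0938, permutation test). Against the 4 KT mice that share the spike-in total of the H11-LSL-Cas9 mice, neither step passed (0.27 for Keap1, adjusted p = 0.411, and 0.34 for Rnf43, adjusted p = 0.311). The partner added to Nf1 went with fewer tumours for Pcna (-2.17), Lkb1 (-0.69) and Keap1 (-0.38), with 8.46% of steps called lower. Beside inert these genes were called lower in number too (-1.70, -0.39 and -0.48).

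Between the Cas9 groups themselves, H11-Cas9 minus H11-LSL-Cas9, the Nf1/inert number differed by 0.17 ± 0.11 (adjusted p = 0.229, studentised permutation). The Nf1 step was called larger in H11-Cas9 for 4 of 15 partners, Apc (0.36), Lkb1 (0.28), Rasa1 (0.23) and p53 (0.22), where 3.68% of steps were. The reverse step was called lower in H11-Cas9 for 5, with differences of -0.69 for Lkb1, -0.70 for Keap1, -0.83 for Kmt2b, -0.87 for Meaf6 and -2.55 for Pcna, against 21% of steps. These comparisons were added after the values were seen.

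**Figure D5:**
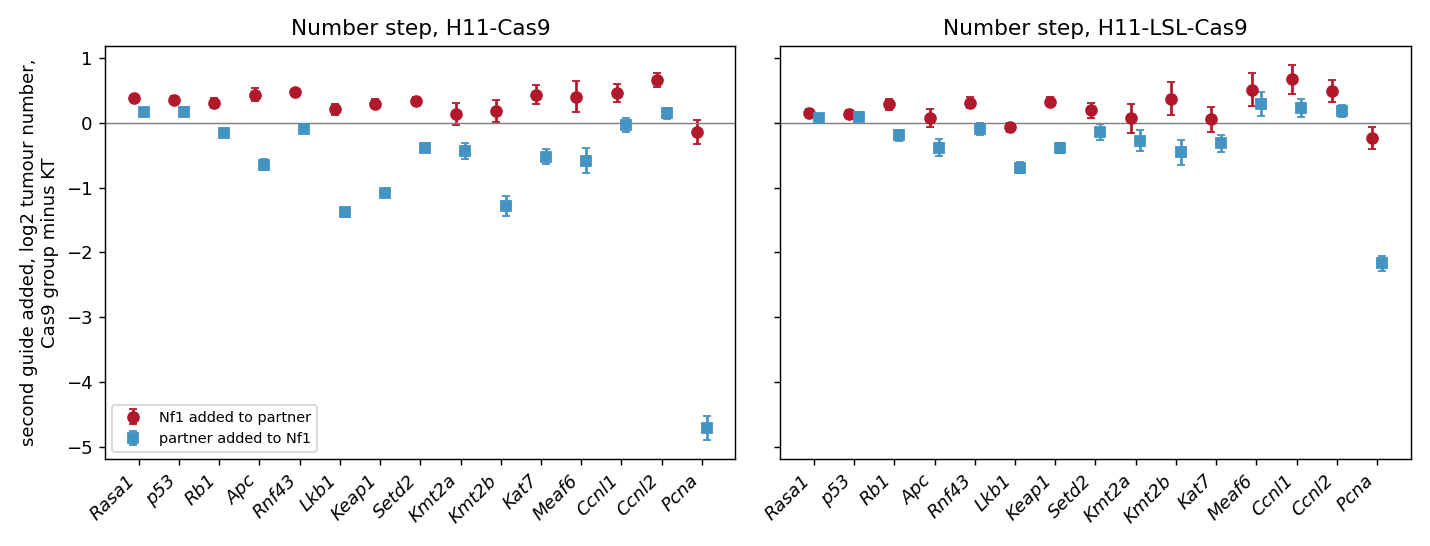
Number steps for Nf1 added to a partner (red circles) and the partner added to Nf1 (blue squares), as log2 tumour number in H11-Cas9 minus KT (left) and H11-LSL-Cas9 minus KT (right), mean difference and SE. In H11-Cas9 the red points are above 0 for 14 of 15 partners, and the blue points reach -4.71 for Pcna.

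By the order of their pair effects in H11-Cas9 mice, the genes most like Nf1 were p53 (Spearman correlation 0.785 over 14 shared partners), Keap1 (0.771 over 14) and Rnf43 (0.749 over 14). Rasa1 followed at 0.746 over 15 partners. Pearson's correlation gave another order, with Rasa1 first (0.888), then Lkb1 (0.811), and p53 at 0.776. The points are partner genes, not mice, and share the same mice and inert/inert tumours. Averaged over the shared partners the Nf1 pair minus the Keap1 pair was 0.31 and the Nf1 pair minus the p53 pair -0.02 in log2 size.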

How the data were processed

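Tumour barcodes and guide pairs were amplified from bulk lung DNA and sequenced as 1 library per mouse, per the labels' protocols. The deposited table gives the read count of each tumour and a signal, the estimated cell number, per the file headers. In the deposited values this signal is the read count times 1 factor per mouse. How reads became that table, its filters, the viral dose and the guide sequences were not given in the sources used here.

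Of 379042 entries, 287 were spike-ins. Left out were 6757 tumours with the same guide in both places (503 with Nf1) and 29285 with an NE guide (2421 with Nf1). Sizes were mean log2 cells, compared within mice that held at least 5 tumours of each kind, with a 2-sided sign-flip permutation test over mice (exact up to 16 mice, otherwise 100000 resamples, whose smallest p is 1e-05) in at least 3 mice. Group comparisons permuted mouse labels, plainly for number and divided by the standard error for size and between the Cas9 groups. Numbers used mice with at least 5 inert/inert tumours (45 H11-Cas9, 17 H11-LSL-Cas9 and 9 KT). P-values were adjusted by Benjamini-Hochberg over all 17 genes, or over all pairs, steps or departures of the table, and results for 1 partner gene are not reported here.

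Every other partner was named whatever its values. The members, groups and lists were chosen with earlier results of these data known. The minimum of 3 mice was set after 3 and 6 had both been run. Nothing in the labels says how mice were assigned, and nothing measured the edit, so the targeted gene could not be checked. The alternatives were minimum sizes, the 90th percentile, adaptive sampling, kept same-guide constructs, more tumours per mouse, the spike-in totals, titles, another pseudocount, another permutation and each KT mouse left out. Share of tumours over 1000 or 10000 cells, guide-wise number, place in pairs, Nf1 minus other genes, number between Cas9 groups and NE as inert were added after seeing the data. The scripts ran on Python 3.11.15 with scipy 1.17.1, numpy 2.4.6 and pandas 2.3.3, drew with matplotlib 3.10.9, and were tested on simulated data.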

Additional observations from a re-analysis of the deposited data

Results flagged for a closer look

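In KT mice the pair of Nf1 with Pcna had 1 mouse, KT replicate 5, far above the other 8 in size relative to inert/inert (0.49, the nearest at 0.19). The log2 number of Nf1/inert over inert/inert tumours likewise had 1 KT mouse, replicate 1, far above the rest (1.33, the nearest at 1.14). Among 38 groups of mice examined in this way, chance alone gives about 1 in 20.

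Tumour numbers of Nf1 constructs differed between H11-Cas9 and H11-LSL-Cas9 mice, by studentised permutation with Benjamini-Hochberg adjustment. As H11-Cas9 minus H11-LSL-Cas9 on the log2 scale, the pairs of Nf1 with Pcna (-2.37), Meaf6 (-0.70), Kmt2b (-0.66), Keap1 (-0.53) and Lkb1 (-0.52) were lower and the pair with Rasa1 (0.27, adjusted p = 0.0495) higher, against a background of 44.1% of pairs lower and 0.735% higher. Nf1 added to Apc (0.36), Lkb1 (0.28), Rasa1 (0.23) and p53 (0.22) gave more tumours in H11-Cas9, where 3.68% of all steps were called higher. Pcna (-2.55), Meaf6 (-0.87), Kmt2b (-0.83), Keap1 (-0.70) and Lkb1 (-0.69) added to Nf1 gave fewer, where 21% of all steps were called lower.

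Constructs outside the rule also carried Nf1 guides. Nf1 with the NE guide stood 0.38 ± 0.07 above inert/inert in H11-Cas9 mice (35 of 45 mice, permutation p = 1e-05), 0.05 in H11-LSL-Cas9 and 0.05 in KT. The same Nf1 guide in both places went with smaller tumours than inert/inert, at -0.41 ± 0.14 in H11-Cas9 (17 mice, permutation p = 0.0108) and -0.69 in KT (0 of 9 mice above 0, exact p = 0.00391). H11-LSL-Cas9 had 4 such mice, at -0.08. The same inert guide in both places was at -0.22 in H11-Cas9, -0.23 in H11-LSL-Cas9 and -0.27 in KT. Nf1 minus inert among such constructs was -0.23 in H11-Cas9 (permutation p = 0.0682) and -0.42 in KT (exact p = 0.00781), where no guide can cut.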

How the results depend on the processing

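The Nf1/inert size difference in H11-Cas9 mice stayed called under every alternative run, at 0.32 to 1.12. In H11-LSL-Cas9 it became called under adaptive sampling (0.69), and against KT at a minimum of 200 cells (0.53). The place difference there lost its call at 200 cells (0.36) and for the 90th percentile (1.06). Number in H11-Cas9 lost its call near a spike-in total of 100000 (0.36), and ranged from 0.39 to 0.43 with 1 KT mouse left out. In H11-LSL-Cas9 it was called relative to all tumours (0.42), a ratio that also moves with the numbers of other genes, and with NE as inert (0.37).

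In H11-Cas9 the 8 larger pairs became 2 at 500 cells and 5 near 300000, and 1 smaller pair appeared for the 90th percentile and under adaptive sampling. The 6 Nf1 steps became 3 at 200 cells, 1 at 500 cells, 2 for the 90th percentile, 1 near 100000 and 1 near 300000. The 1 lower partner step became 0 at 200 cells, 0 at 500 cells and 0 near 300000, 4 for the 90th percentile, 5 under adaptive sampling (with 1 higher), and 2 with NE as inert or with at least 6 mice. The 6 negative departures became 0 at 500 cells, 3 under adaptive sampling and 0 near 300000.

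In H11-LSL-Cas9 the 0 larger pairs became 5 at 200 cells, 2 with same-guide constructs kept, 2 with at least 10 tumours, 4 under adaptive sampling and 1 with NE as inert. Its Nf1 steps became 4 under adaptive sampling, and lower partner steps 1 there and 1 for the 90th percentile.

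For number in H11-Cas9, the 4 higher pairs became 2 at 200 cells and 0 near 100000 (2 to 3 with 1 KT mouse left out), and the 6 Nf1 steps 11 with the studentised permutation and 2 near 100000. In H11-LSL-Cas9 higher pairs became 2 with a pseudocount of 1, 5 studentised and 6 with NE as inert, lower pairs 1 near 300000 and 1 with NE as inert, and Nf1 steps 4 studentised, 0 near 300000 and 1 to 2 with 1 KT mouse left out.

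Where either value was called, opposite in sign were the Ccnl1 departure with at least 10 tumours (0.19) and, under adaptive sampling, the Keap1 pair (-0.44), the Lkb1 pair (-0.17) and Lkb1 added to Nf1 (-1.43). The uncalled H11-Cas9 minus H11-LSL-Cas9 size difference of 0.32 was -0.04 at 200 cells. Size minima and spike-in totals leave fewer tumours or mice, adaptive sampling combines size with number, and otherwise the cause was not tested. Titles beginning with LA held no H11-LSL-Cas9 mouse. No paired analysis was possible because replicate numbers only follow accession order and pair no mice between groups, so the pairing is that of tumours within a mouse. Few inert/inert tumours per mouse limit the precision.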
